A study of Homo sapiens with 4 samples.

Results

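The 30 genes described here are 17 S100 genes, 12 annexin genes and S100PBP, which encodes a protein that binds S100P. They were taken by gene symbol from the platform annotation, out of 20046 named genes on the array, and 50 probes carry their names. No measured value set which probes were included, but the gene list was chosen with earlier results of these data known. RNA came from the established breast cancer line MDA-MB453, which is of human origin and carries a marker of green fluorescent protein (GFP). The GFP-positive fraction is named cancer stem-like in the labels and the GFP-negative fraction is named as lacking that property, with 2 arrays in each group. The cells were grown in DMEM with 10% fetal bovine serum, and neither the promoter behind GFP nor any treatment is given in the sources used here. The series text pairs the groups by isolation day and says that batches of RNA were combined, without saying whether any array holds pooled RNA. All cells come from 1 line, so the arrays compare fractions of that line only. In bulk RNA such as this, fewer cells of a type and less RNA per cell cannot be told apart.

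S100 proteins are small calcium-binding proteins built on EF-hand loops, and most act as dimers that change shape on binding calcium and then grip a target protein. Annexins bind acidic phospholipids of membranes in a calcium-dependent way and take part in membrane repair, vesicle traffic and the link between membrane and actin. Several S100 dimers bind the N-terminal tail of an annexin and can bridge membranes. In breast and other epithelia, S100 genes of the chromosome 1 cluster differ strongly in level between cell states.

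In GFP-positive cells S100A10 and S100A11, whose products join annexins A2 and A1, were much lower, while ANXA1 did not pass the test and ANXA2 was higher by 2 of its 3 probes. S100A11 was 8.22-fold lower and S100A10 was 3.55-fold lower by its brighter probe. The brightest ANXA1 and ANXA2 probes had log2 differences of 0.16 and 0.37 that did not pass the test. S100A13 was also lower, and its chromosomal neighbours S100A14 and S100A16 were higher. ANXA6 was 3.97-fold lower, the largest difference among the tested annexin probes. A difference is GFP-positive minus GFP-negative on the log2 scale, and passing means an adjusted p under 0.05 (limma's moderated test, Benjamini-Hochberg over all 18098 tested probes).

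The regions upstream of 5 genes on which the results turn are given first, from 250 bases before to 50 bases after the transcript start (RefSeq, GRCh38.p14, minus strand for all 5, written 5′ to 3′). S100A10 and ANXA2 are the genes of a single complex, S100A11 had the largest decrease of a brightest S100 probe, and S100A14 and S100A3 were higher. Capitals mark the 4 motifs searched on both strands: the AP-1 motif TGANTCA, the TATA motif TATAAA, the GC box GGGCGG and the CCAAT box.
S100A10: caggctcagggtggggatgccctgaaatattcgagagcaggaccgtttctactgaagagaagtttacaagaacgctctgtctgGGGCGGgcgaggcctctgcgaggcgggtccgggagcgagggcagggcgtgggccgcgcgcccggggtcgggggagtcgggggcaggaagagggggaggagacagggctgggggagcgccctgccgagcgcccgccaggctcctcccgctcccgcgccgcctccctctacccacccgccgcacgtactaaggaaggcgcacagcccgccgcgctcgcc
S100A11: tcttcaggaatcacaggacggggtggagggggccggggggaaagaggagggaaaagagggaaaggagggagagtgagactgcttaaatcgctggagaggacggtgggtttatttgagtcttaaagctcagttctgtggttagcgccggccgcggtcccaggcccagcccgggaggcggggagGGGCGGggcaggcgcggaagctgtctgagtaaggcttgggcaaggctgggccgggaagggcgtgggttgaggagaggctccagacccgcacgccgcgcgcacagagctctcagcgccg
S100A14: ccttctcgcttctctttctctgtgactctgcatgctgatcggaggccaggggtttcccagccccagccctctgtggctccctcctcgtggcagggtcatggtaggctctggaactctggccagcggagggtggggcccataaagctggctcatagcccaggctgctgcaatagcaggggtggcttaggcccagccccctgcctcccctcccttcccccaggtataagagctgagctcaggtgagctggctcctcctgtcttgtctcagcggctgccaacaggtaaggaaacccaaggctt
S100A3: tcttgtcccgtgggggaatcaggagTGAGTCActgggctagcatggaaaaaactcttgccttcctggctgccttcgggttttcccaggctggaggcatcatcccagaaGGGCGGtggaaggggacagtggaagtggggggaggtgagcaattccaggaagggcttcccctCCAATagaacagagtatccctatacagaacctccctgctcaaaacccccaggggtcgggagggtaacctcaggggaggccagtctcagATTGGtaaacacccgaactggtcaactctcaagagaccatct
ANXA2: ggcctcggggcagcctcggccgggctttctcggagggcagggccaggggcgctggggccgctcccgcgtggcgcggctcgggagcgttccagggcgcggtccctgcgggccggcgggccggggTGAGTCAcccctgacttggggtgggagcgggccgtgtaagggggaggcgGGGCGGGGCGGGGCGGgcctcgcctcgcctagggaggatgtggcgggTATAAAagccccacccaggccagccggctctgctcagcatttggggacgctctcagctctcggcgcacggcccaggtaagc
S100A10 lies on chromosome 1 (window at chr1:151993810-151994109), S100A11 at chr1:152036955-152037254, S100A14 at chr1:153616276-153616575, S100A3 at chr1:153549209-153549508, and ANXA2 on chromosome 15 at chr15:60397937-60398236. The windows of S100A10 and S100A11 each held 1 GC box and no other searched motif, and the S100A14 window held none of the 4. ANXA2 held a TATA motif 31 bases before the start, an AP-1 motif at 127 bases and 3 GC boxes that overlap each other by a base, at 78, 73 and 68 bases before it. S100A3 held an AP-1 motif 225 bases before the start, a GC box at 142 bases and a CCAAT box at 80 bases before it. Its other CCAAT box lies 8 bases after the start and is on the opposite strand, printed as ATTGG. Of all 35116 windows of this length, 7.71% held the AP-1 motif, 11.5% the TATA motif, 45% the GC box and 34.6% the CCAAT box. Windows were found for 27 of the 30 genes, 40 in all because some genes have several starts. The AP-1 motif was in 15% of these 40, the TATA motif in 30%, the GC box in 40% and the CCAAT box in 25%, and overlapping windows of a gene share bases. A match is a description of letters only.

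Across the arrays, 36.8% to 38.5% of probes were detected above the negative controls (detection p under 0.05), and the median signal was 178 and 192 in GFP-positive cells, against 184 on each GFP-negative array. Of the 50 probes, 30 were detected on both arrays of at least 1 group and were tested. They cover 10 S100 genes, 8 annexins and S100PBP. The other 11 genes (S100A1, S100A5, S100A7, S100A8, S100A12, S100B, S100P, ANXA4, ANXA8, ANXA9 and ANXA13) had no tested probe. The reported analysis therefore makes no statement on a difference for them. Among these, S100A5 (GFP-positive replicate 1), S100A8 (GFP-positive replicate 1) and ANXA8 (GFP-negative replicate 1, by 1 of its 5 probes) were each detected on a single array. S100A8 and S100A12 are calcium-binding proteins of neutrophils and monocytes, and S100B is a glial and melanocyte protein. Of 10 myeloid markers with a probe, 5 were detected on no array and 2 were tested. CD68, a lysosomal protein of macrophages, was higher in GFP-positive cells by 1 probe (615 and 658, against 259 and 230 in GFP-negative cells, log2 fold change 2.32 ± 0.22), while its other tested probe did not pass at -0.40. CD14 was detected on all 4 arrays and did not pass, at -0.31. The summed signal of that marker list was 2135 and 2316 on the GFP-positive arrays, against 2539 and 2424 on the GFP-negative arrays. Each summed signal, here and below, takes the brightest probe of every gene with a probe, undetected genes included. For CD68 that is the probe that did not pass, with 569 and 597 in GFP-positive cells, against 826 and 722 in GFP-negative cells. The called CD68 probe, which went the other way, is not in the sum. Of 6 melanocyte and glial markers with a probe none was tested. Of 9 fibroblast markers, 3 passed and were lower in GFP-positive cells (the collagen genes COL1A1, COL1A2 and COL3A1), and the other 6 were detected on no array. Over all tested genes 24.1% were called in the lower direction only. None of these 3 was detected on both GFP-positive arrays. They were tested only through the GFP-negative group, so the filter favoured that direction. The summed fibroblast signal was 1595 and 1574 in GFP-positive cells, against 2110 and 2589 in GFP-negative cells, and its part in the lower S100 and annexin signals was not tested. Of 12 luminal and apocrine breast markers with a probe, 9 were tested, 3 higher and 3 lower. The summed signal of all 12 was 48648 and 50941 in GFP-positive cells, against 29241 and 33434 in GFP-negative cells. The higher ones were KRT8 at 5.18 on the log2 scale, KRT19 at 3.20 (both keratins) and EPCAM, an adhesion molecule of epithelia, at 0.60. The lower ones were ALCAM at -1.47, the receptor gene ERBB2 at -1.46 and the luminal factor FOXA1 at -0.94. KRT8 had signals of 12411 and 12727 in GFP-positive cells, against 658 and 417 in GFP-negative cells, and KRT19 had 11595 and 12569 in GFP-positive cells, against 1823 and 1425 in GFP-negative cells. Together these differences were larger than that in the sum.

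Of the 30 tested probes, 7 were higher in GFP-positive cells and 11 were lower. Over all tested probes 40.5% passed, 18.8% higher and 21.7% lower. Counted by gene, with a gene taken as changed where at least 1 of its probes passed, 3 of the 17 S100 genes were higher in GFP-positive cells (S100A3, S100A14, S100A16) and 6 were lower (S100A2, S100A4, S100A9, S100A10, S100A11, S100A13). S100A6 was tested and did not pass, and 7 were not tested. Of the 12 annexins, 3 were higher (ANXA2, ANXA3, ANXA10), 2 were lower (ANXA6, ANXA11), 3 did not pass (ANXA1, ANXA5, ANXA7) and 4 were not tested. Among all 10955 tested genes, 45.8% had a called probe, 21.5% in the higher direction only and 24.1% in the lower direction only. By the brightest tested probe, log2 differences ran from -3.04 to 2.67 over the 10 tested S100 genes with a median of -0.71, and from -1.99 to 0.94 over the 8 tested annexins with a median of 0.27, where the median over all tested genes was -0.05. These medians cover tested genes only, and a probe detected in only 1 group had to differ to be tested. That holds for S100A9, S100A14, ANXA10 and 2 of the S100A13 probes.

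**Figure D1:**
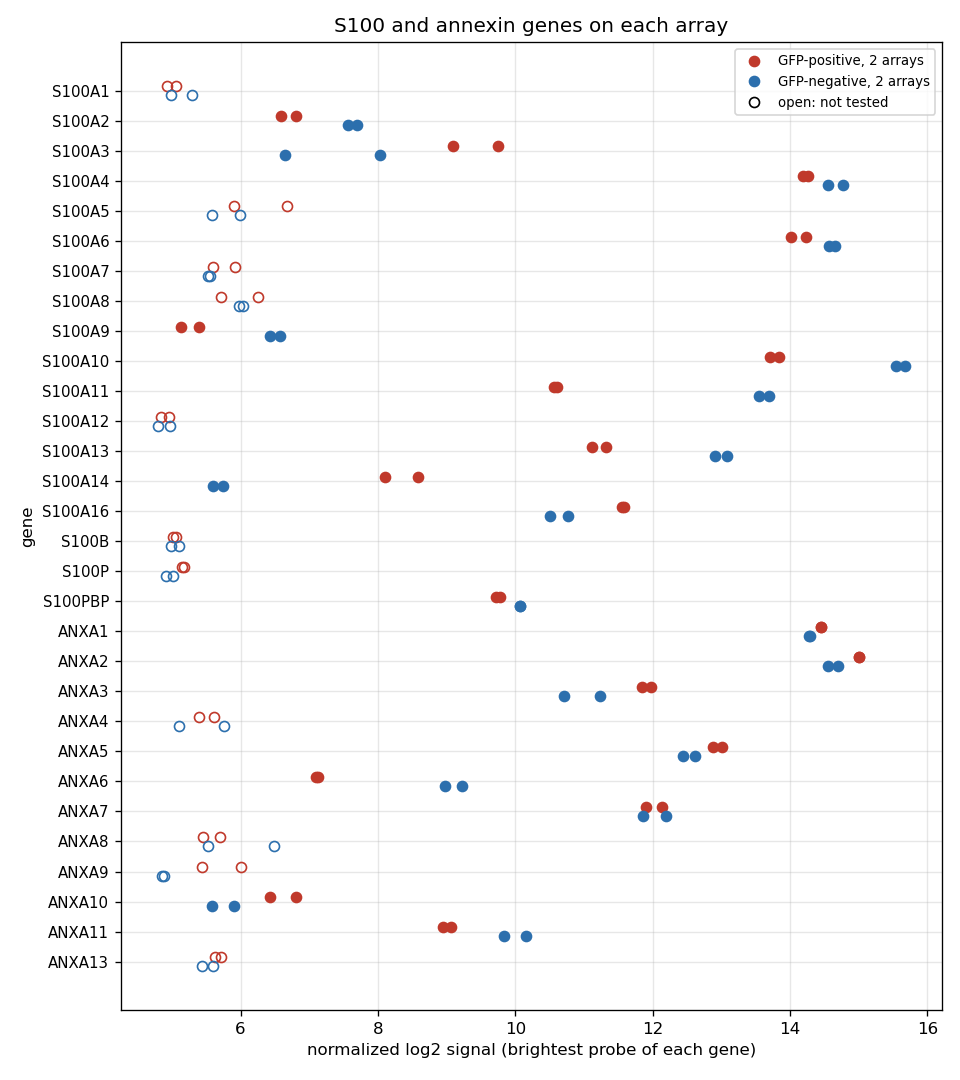
Normalized log2 signal (x axis) of the brightest probe of each of the 30 genes (y axis) on the 2 GFP-positive arrays (red) and the 2 GFP-negative arrays (blue), with open circles for genes whose probe was not tested. S100A10, S100A11 and S100A13 lie well apart between the groups with GFP-positive arrays lower, S100A14 lies apart with GFP-positive arrays higher, and the ANXA1 and ANXA7 points lie close together.

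The annexin partners come first among the S100 genes. S100A10, also called p11, does not respond to calcium. It forms a heterotetramer with annexin A2 that carries proteins to the cell surface and binds plasminogen there. Its brighter probe (ILMN_2046730) had signals of 13834 and 13064 in GFP-positive cells, against 52822 and 49987 in GFP-negative cells. Its other probe (ILMN_1796712) had 7800 and 7820 in GFP-positive cells, against 41344 and 38725 in GFP-negative cells. On both probes the GFP-positive arrays lay far below the GFP-negative arrays with no overlap, as they did for 72.6% of all tested probes in either direction. The log2 fold changes were -1.83 ± 0.17 and -2.21 ± 0.17 (SE, n = 2 per group), with adjusted p of 0.000166 and 5.06e-05 (limma). The highest signal of any probe was 57534 and 56908 on the GFP-negative arrays, so S100A10 read near the top of the scale there, and whether that shortened its difference was not tested. The gene lies at chr1:151982915-151993859.

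S100A11 binds annexin A1 and, like S100A10, has been placed in membrane repair and vesicle traffic. It lies at chr1:152032506-152037004, the next S100 gene after S100A10. Its probe had signals of 1553 and 1579 in GFP-positive cells, against 14158 and 12906 in GFP-negative cells. The arrays of each group were close together and the groups lay far apart. The log2 fold change was -3.04 ± 0.17 (95% interval -3.44 to -2.63, adjusted p = 1.08e-05, limma), and it ran from -3.21 to -2.93 over the alternative analyses.

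S100A6 (calcyclin), which binds annexins A2, A5 and A11, and S100A4 (metastasin), which binds non-muscle myosin and annexin A2, were bright in both groups and differed less. S100A6 had 15599 and 18475 in GFP-positive cells, against 25755 and 27224 in GFP-negative cells. Its log2 difference was -0.49 ± 0.18 with an adjusted p of 0.0638 (limma). With a replicate block for the pairing, the adjusted p was 0.0458, with an intensity trend it was 0.00117, and it was also under the threshold without background correction and with 75th percentile scaling. The brighter S100A4 probe had 17355 and 18804 in GFP-positive cells, against 25482 and 29346 in GFP-negative cells. Its log2 difference of -0.44 ± 0.18 did not pass (adjusted p = 0.0846, limma). The other S100A4 probe passed at -0.84 ± 0.19 (adjusted p = 0.0117, limma), with 813 and 1006 in GFP-positive cells against 1480 and 1860 in GFP-negative cells. Without GFP-positive replicate 1 its adjusted p was 0.094. On all of these probes the GFP-positive arrays were below the GFP-negative ones without overlap. Groups did not overlap for 72.6% of all tested probes in either direction.

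S100A13, which takes part in the non-classical export of FGF1 and interleukin 1 alpha, had 6 probes. The brightest (ILMN_1765459) had 2173 and 2584 in GFP-positive cells, against 9148 and 8383 in GFP-negative cells. A further probe (ILMN_2407168) had 1705 and 1804 in GFP-positive cells, against 5916 and 4782 in GFP-negative cells. The GFP-positive arrays were below the GFP-negative arrays on both. Their log2 fold changes were -1.78 ± 0.18 and -1.48 ± 0.20 (adjusted p = 0.000243 and 0.000928, limma). The probe ILMN_1814799 had 179 and 201 in GFP-positive cells, where it was not detected, against 794 and 886 in GFP-negative cells, and was at least 9.49-fold lower after background correction (adjusted p = 4.66e-06, limma). Without background correction it was 4.28-fold lower, so the bound applies to the corrected scale only. The bound sets the undetected group at the lowest normalized value of a detected probe, or at the probe's own value where that is higher. An adjusted p beside a bound, here and below, belongs to the log2 difference without the bound, and no bound was tested. A further dim probe did not pass, with a log2 difference of -0.40, and the last pair of probes was detected on no array. S100A13 spans chr1:153618799-153634361 and contains S100A1, whose own probe was detected on no array.

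S100A9, the partner of S100A8 in calprotectin, was not detected in GFP-positive cells (133 and 166) and was dim in GFP-negative cells (233 and 231). Its log2 difference was -1.24 ± 0.19 (adjusted p = 0.00165, limma), and by the bound it was at least 1.28-fold lower. S100A8 had 209 and 191 in GFP-positive cells, against 199 and 204 in GFP-negative cells, and was not tested. S100A2, a mainly epithelial member, was dim in both groups, with 231 and 264 in GFP-positive cells against 319 and 371 in GFP-negative cells. Its log2 fold change was -0.92 ± 0.18 (adjusted p = 0.00584, limma), and the adjusted p was 0.0538 without GFP-positive replicate 1.

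**Figure D2:**
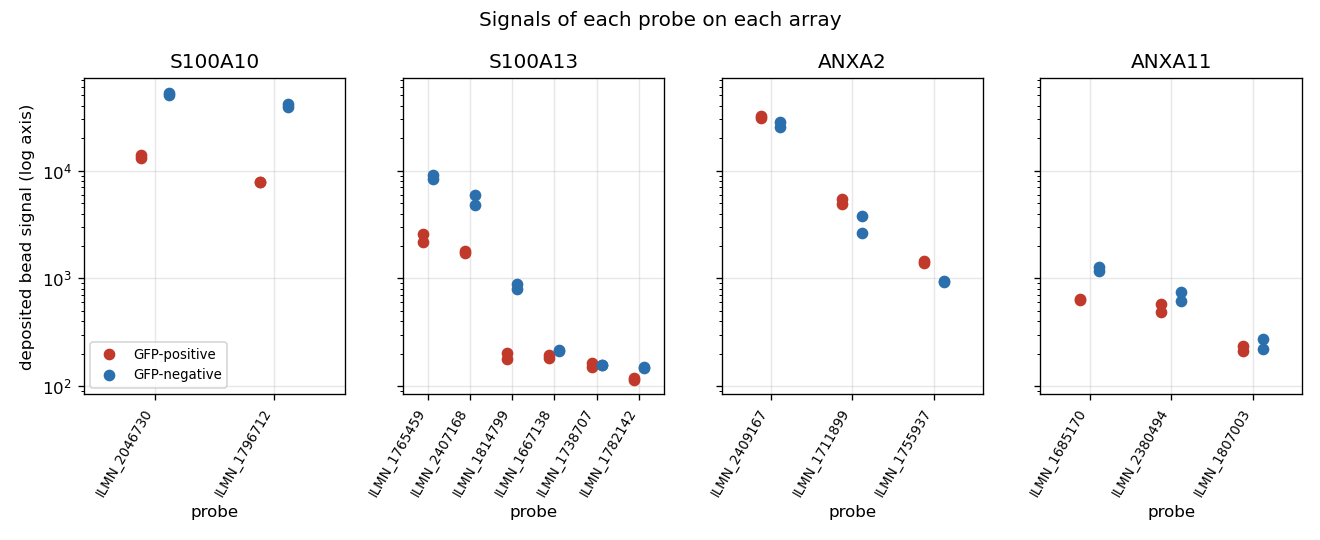
Deposited bead signals on a log axis for every probe (x axis) of S100A10, S100A13, ANXA2 and ANXA11, with the 2 GFP-positive arrays in red left of the 2 GFP-negative arrays in blue. GFP-positive arrays are lower on both S100A10 probes and on the 3 brightest S100A13 probes, and higher on the ANXA2 probes by a smaller margin.

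The S100 genes that were higher in GFP-positive cells are not among the listed annexin partners. S100A14, a member found mainly in epithelia, lies at chr1:153614255-153616325. It had 500 and 423 in GFP-positive cells and was not detected in GFP-negative cells, at 185 and 175. It was at least 4.65-fold higher after background correction (adjusted p = 6.35e-05, limma), and 2.60-fold higher without it. S100A16, its neighbour at chr1:153606883-153613137 and a widely expressed member, had 2950 and 2966 in GFP-positive cells, against 1915 and 1781 in GFP-negative cells. The groups did not overlap, as for 72.6% of all tested probes, and the log2 fold change was 0.93 ± 0.18 (adjusted p = 0.00583, limma). S100A3, known from the hair cuticle, had 942 and 686 in GFP-positive cells, against 390 and 249 in GFP-negative cells, with a wide spread within each group. Its log2 fold change of 2.08 ± 0.43 (adjusted p = 0.00784, limma) was 1.39 without GFP-negative replicate 2 and 2.75 without GFP-negative replicate 1. With no detection filter the adjusted p was 0.0574. Of 8 keratinocyte and squamous markers with a probe, 4 were tested, 2 higher, 1 lower and 1 not past, where 21.5% and 24.1% of all tested genes were called higher only and lower only. KRT10 was higher at 1.01 ± 0.18, and SFN did not pass at 0.17. DSC3 was at least 2.43-fold higher (1.64-fold without background correction) and KRT5 at least 1.83-fold lower (2.46-fold without it). DSC3 and KRT5 were each tested only through the group where they were brighter. The summed signal of the 8 markers was 7692 and 8608 in GFP-positive cells, against 7775 and 6255 in GFP-negative cells. Most of it came from SFN and KRT10. The part of these markers in the S100A14 difference was not tested.

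By position, 15 of the 17 S100 genes lie between chr1:151982915 and chr1:153634361, a stretch of 1651 kb, and all 10 tested S100 genes are in it. S100A10 and S100A11 stand at one end, separated from S100A9 by 1321 kb that holds epidermal differentiation genes. Both were lower in GFP-positive cells. Within the main run, S100A4 was lower by 1 of its probes and its neighbour S100A3, 1522 bases away, was higher. S100A2, next in order, was lower. S100A16 and S100A14, 1117 bases apart, were both higher, and S100A13, 2473 bases beyond S100A14, was lower. Of the other genes of the stretch, 48 have a probe, and 43 of those were detected on no array. Only FLG2 and SPRR1A were tested among them. FLG2 did not pass at 0.42 (adjusted p = 0.0853, limma), and SPRR1A, a cornified envelope precursor, was lower at -0.56 ± 0.19 (adjusted p = 0.048, limma). Beyond the cluster, S100PBP at chr1:32816562-32858879 had 3 tested probes, none of which passed, with log2 differences from -0.33 to 0.10.

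**Figure D3:**
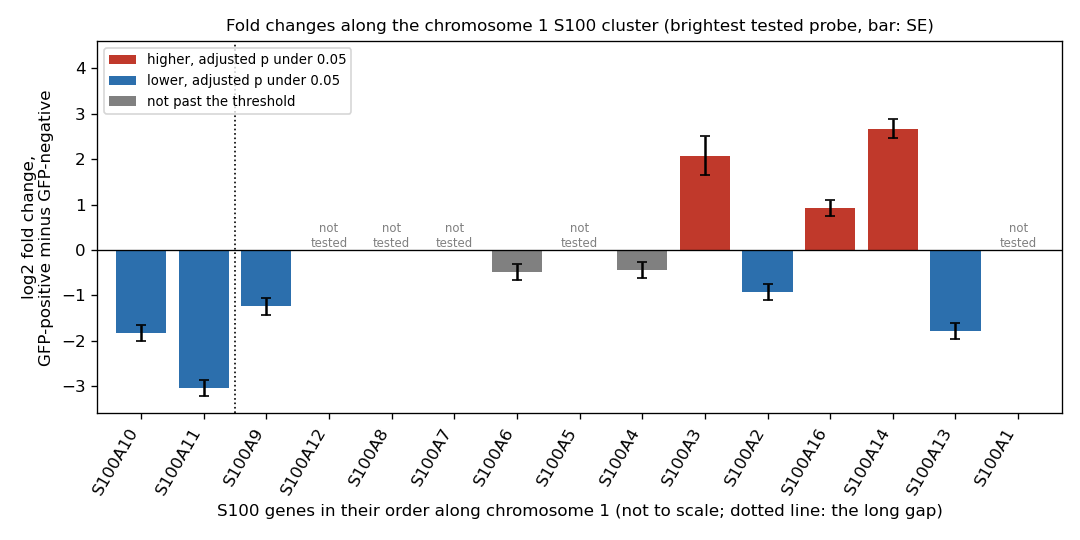
Log2 fold change, GFP-positive minus GFP-negative, of the 15 S100 genes in their order along chromosome 1 (brightest tested probe, error bars SE, n = 2 per group). Genes lower in GFP-positive cells (S100A2, S100A13) stand beside genes that are higher (S100A3, S100A16, S100A14); S100A4 is shown by its brightest probe, at -0.44, which did not pass.

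Among the annexins, the partners of S100A10 and S100A11 were bright in both groups. ANXA1, a phospholipase-inhibiting protein that signals through formyl peptide receptors, lies at chr9:73151865-73170393. It had 21283 and 21892 in GFP-positive cells, against 21442 and 21254 in GFP-negative cells. The deposited signals of the groups overlapped. After normalization they did not, as for 72.6% of all tested probes, and the log2 difference was 0.16 ± 0.17 (95% interval -0.23 to 0.56, adjusted p = 0.479, limma). FPR1, a receptor of the formyl peptide family, had a log2 difference of 0.28 (adjusted p = 0.315, limma).

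ANXA2, the partner of S100A10, lies at chr15:60347151-60397986 and had 3 tested probes. The brightest (ILMN_2409167) had 30592 and 32173 in GFP-positive cells, against 28238 and 25164 in GFP-negative cells. Its log2 difference was 0.37 ± 0.17 (95% interval -0.03 to 0.78, adjusted p = 0.126, limma), and the adjusted p was 0.0415 without background correction and 0.00261 with an intensity trend. The probe ILMN_1711899 had 4863 and 5458 in GFP-positive cells, against 2616 and 3774 in GFP-negative cells. The third probe (ILMN_1755937) had 1448 and 1400 in GFP-positive cells, against 938 and 931 in GFP-negative cells. GFP-positive arrays were higher on all 3 without overlap, where 72.6% of all tested probes showed no overlap in either direction. The dimmer probes passed at 0.92 ± 0.21 and 0.86 ± 0.18 (adjusted p = 0.0107 and 0.00824, limma), and the call ended without GFP-positive replicate 2 for the first (0.0698) and without GFP-positive replicate 1 for the second (0.0626). ANXA2 has processed pseudogenes of nearly the same sequence, so which locus a probe reads is uncertain. Of 4 tested pseudogene probes none passed. The brighter ANXA2P1 probe had 3336 and 3034 in GFP-positive cells, against 2585 and 2764 in GFP-negative cells, with a log2 difference of 0.45 (adjusted p = 0.0744, limma), and its dimmer probe and that of ANXA2P3 were at 0.11 and -0.01. The ANXA2P2 probe had 32667 and 39549 in GFP-positive cells, against 40220 and 44254 in GFP-negative cells, with a log2 difference of -0.09 (adjusted p = 0.731, limma).

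ANXA6, a large annexin with a duplicated core that links membranes to actin and to cholesterol handling, lies at chr5:151100706-151157779. It had 273 and 290 in GFP-positive cells, against 723 and 705 in GFP-negative cells. The groups lay well apart. The log2 fold change was -1.99 ± 0.18 (adjusted p = 0.00013, limma), and -1.30 without background correction, where dim signals are compressed. ANXA11, which binds S100A6 and the EF-hand protein PDCD6 (ALG-2), had 3 tested probes. The brightest had 640 and 633 in GFP-positive cells, against 1286 and 1165 in GFP-negative cells, and a log2 fold change of -0.99 ± 0.19 (adjusted p = 0.00561, limma). The others did not pass, at -0.36 and -0.29, and their groups overlapped after normalization.

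ANXA3, an annexin of neutrophils and many epithelia, had 3520 and 3938 in GFP-positive cells, against 1839 and 2816 in GFP-negative cells. The log2 fold change of 0.94 ± 0.22 (adjusted p = 0.013, limma) lost its call without GFP-positive replicate 2 (0.072), without GFP-negative replicate 1 (0.0586) and with no detection filter (0.0504). ANXA10, known from gastric epithelium, had 248 and 238 in GFP-positive cells and was not detected in GFP-negative cells, at 194 and 174. It was at least 1.41-fold higher after background correction (adjusted p = 0.0144, limma) and 1.31-fold higher without it, and the adjusted p was 0.11 without GFP-positive replicate 1, 0.0616 without GFP-negative replicate 2 and 0.051 with no detection filter. ANXA5, which binds phosphatidylserine and is used to mark dying cells, had 7116 and 7850 in GFP-positive cells, against 5932 and 7033 in GFP-negative cells. Its log2 difference was 0.41 ± 0.18 (95% interval -0.01 to 0.83, adjusted p = 0.106, limma). ANXA7, which binds the EF-hand protein sorcin, had a log2 difference of -0.01 (95% interval -0.47 to 0.45), and its groups overlapped.

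**Figure D4:**
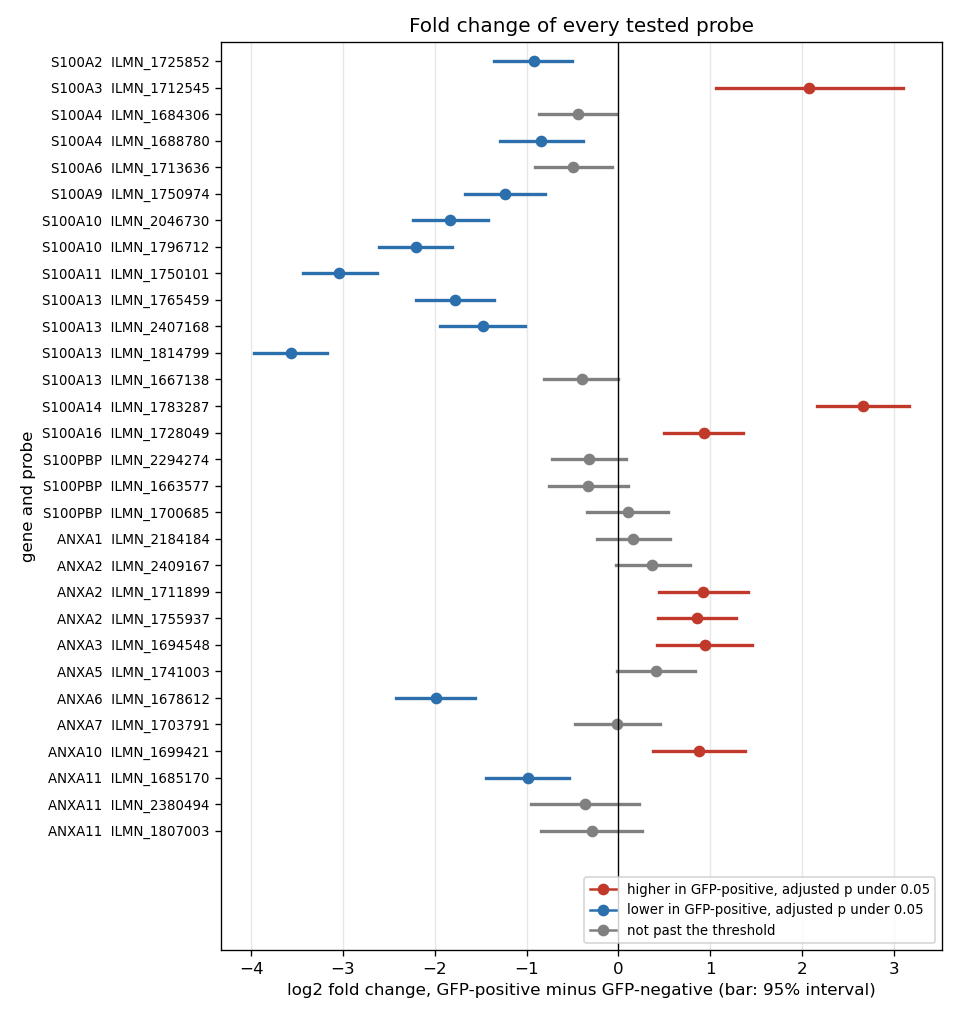
Log2 fold change, GFP-positive minus GFP-negative, of all 30 tested probes with 95% intervals (limma), coloured red where higher, blue where lower and grey where not past an adjusted p of 0.05. The S100A11 probe lies at -3.04 and the lowest S100A13 probe at -3.57, while the tested annexin probes lie between -1.99 and 0.94.

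Known S100 and annexin partners were then set side by side, each gene by its brightest tested probe. Of 13 listed pairs, 9 had both members tested, and in 7 of these the S100 gene's log2 fold change was below the annexin's. The pairs share genes, since ANXA2, S100A6 and S100A11 each stand in several, so they are not independent. They were also listed with earlier results of these data known. S100A10 was at -1.83 and ANXA2 at 0.37, a gap of -2.20 on the log2 scale. S100A11 was at -3.04, with gaps of -3.20 to ANXA1 and -3.41 to ANXA2. Relative to the mean of the GFP-negative arrays, the within-array difference of S100A10 to ANXA2 was -2.13 and -2.27 on the GFP-positive arrays, against -0.01 and 0.01 on the GFP-negative arrays. For S100A11 and ANXA1 it was -3.18 and -3.21 on the GFP-positive arrays, against 0.08 and -0.08 on the GFP-negative arrays. The GFP-positive arrays thus lay apart from the GFP-negative arrays by far more than the replicates differed. Over all probe combinations the S100A10 to ANXA2 gap ran from -3.13 to -2.20.

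S100A11 and ANXA6 were both lower, with a gap of -1.05. S100A6 gave gaps of -0.86 to ANXA2 and -0.90 to ANXA5, and S100A4 a gap of -0.82 to ANXA2, from members none of which passed by its brightest probe. The gap was positive for S100A6 and ANXA11 (0.50, and -0.20 with the dimmest ANXA11 probe) and for S100A9 and ANXA6 (0.75), where both members were lower. The exact permutation test of each gap over the 4 arrays gave a 2-sided p of 0.333, the smallest that 2 against 2 arrays allow, so no gap can pass it. The pairs of ANXA6 with S100A1, S100B and S100A8 and of ANXA5 with S100A12 had no tested S100 probe.

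**Figure D5:**
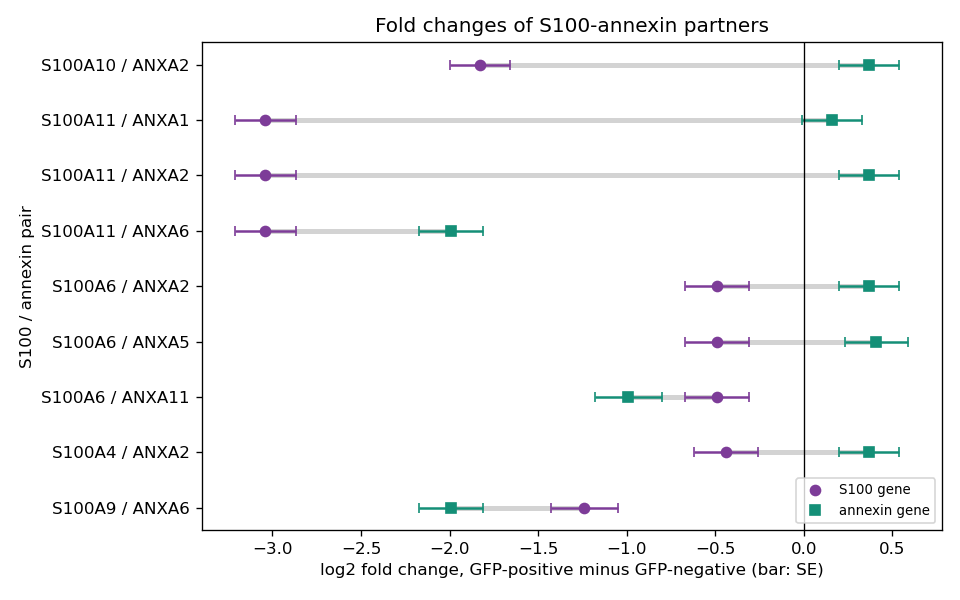
Log2 fold change (x axis, GFP-positive minus GFP-negative) of the S100 gene (purple circle) and the annexin (green square) of the 9 tested pairs, with SE bars and a grey line for the gap. The gap is widest for S100A11 with ANXA2 (-3.41) and ANXA1 (-3.20), followed by S100A10 with ANXA2 (-2.20).

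Other proteins of the same pathways were described from lists of binding partners, calcium sensors and repair factors. Of 12 annexin receptors and partners with a probe, 7 were tested, 1 was higher and 1 lower. ANXA2R, named as a receptor for annexin A2, had 312 and 299 in GFP-positive cells, against 2411 and 1810 in GFP-negative cells, a log2 fold change of -3.48 ± 0.24 (adjusted p = 3.14e-05, limma). PLAT, the tissue plasminogen activator that binds the annexin A2 complex, had 373 and 370 in GFP-positive cells and was not detected in GFP-negative cells, at 183 and 159. It was at least 3.34-fold higher after background correction (adjusted p = 8.31e-05, limma), and 2.20-fold higher without it. Of 14 S100 receptors and partners with a probe, 11 were tested, 4 higher and 2 lower. The ubiquitin ligase gene MDM2 was at least 1.86-fold higher (1.42-fold without background correction), and the S100A4-binding liprin gene PPFIBP1 had a log2 fold change of 1.01 ± 0.24. STUB1, a chaperone-linked ubiquitin ligase, was at -0.73 ± 0.19, and MYH9, the non-muscle myosin heavy chain bound by S100A4, at -0.57 ± 0.17. AGER, the receptor for several secreted S100 proteins, did not pass, with signals of 226 and 212 in GFP-positive cells against 217 and 213 in GFP-negative cells.

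Of 22 EF-hand calcium proteins outside the S100 family with a probe, 20 were tested, 6 higher and 4 lower (median log2 difference of the tested genes 0.02). CALB2, the calcium buffer calretinin, was at least 9.4-fold higher (4.21-fold without background correction), the protease subunit gene CAPN1 had a log2 fold change of 2.26 ± 0.17, and EFHD1, a mitochondrial EF-hand protein, was at least 8.15-fold lower (5.37-fold without background correction). SRI, the gene of sorcin, and PDCD6 did not pass, at 0.00 and -0.10. Of 19 membrane repair and ESCRT-III genes with a probe, 17 were tested, 6 higher and 2 lower (median 0.30). The caveolar genes CAVIN1 and EHD2 had log2 fold changes of 1.88 ± 0.20 and 1.80 ± 0.18, while CAV1 and CHMP4A were at -0.85 ± 0.21 and -0.82 ± 0.19. Some genes stand in more than 1 list, and the shares of tested genes called higher and lower over the whole array are those given above, 21.5% and 24.1%.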

How the data were processed

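Total RNA was amplified to biotin-labelled cRNA and read on Illumina bead arrays, per the labels' protocols, and the submitters' processing notes name GenomeStudio 2009.2. The deposited intensity values are not normalized, per the file headers. Background subtraction is not stated in the labels or headers. The deposited detection p-value moves in steps of 1 in 770. The deposited log2 table equals the quantile-normalized log2 signals (largest difference 5e-09) and served as an alternative. It is thus the same analysis as omitting background correction.

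The analysis used limma 3.58.1 under R 4.3.3: neqc (normexp background inferred from detection p, offset 16, quantile, log2), a filter keeping probes with detection p under 0.05 on both arrays of either group, then lmFit and eBayes (degrees of freedom: 2 residual, 5.31 prior), 2-sided with Benjamini-Hochberg. The code was tested on simulated data. Probes were named from the platform annotation, updated through gene identifiers. The "named genes" rule was to name every member and, from each pathway list, up to 3 called genes each way by size of change. The marker genes, AGER, FPR1, FLG2, SRI, PDCD6 and the pseudogenes were named after their values were seen. The members, lists and pairs were chosen with earlier results of these data known.

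The series text gives matched isolation days, and same-numbered arrays were taken as pairs. The sample titles do not state that the numbers follow the days. Same-numbered arrays deviated together, with a correlation of 0.219 over probes. No block was used in the reported values. Separate cultures are not named in the labels. The p-values thus cover the spread between these samples alone, and that spread may be technical. Alternatives changed the background correction, scaling, filter, values, variance trend, pairing, the probe chosen and the arrays included. The number of arrays limits the precision.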

Additional observations from a re-analysis of the deposited data

How the results depend on the processing

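All 18 called probes of the members kept their direction under each of the 11 distinct alternative analyses that tested them (the deposited table gave the same values as no background correction and is counted once), and 11 passed the threshold in every one: those of S100A9, S100A10, S100A11, S100A13, S100A14, S100A16, ANXA6 and ANXA11. Of the 12 probes that did not pass, 4 passed under at least 1 alternative (S100A4, S100A6, ANXA2 and ANXA5) and 3 changed sign. With no detection filter, more probes were tested and 1 annexin gene was higher rather than 3 (ANXA2 alone kept its call). A filter for detection on all arrays left S100A9, S100A14, ANXA10 and the S100A13 probe ILMN_1814799 untested. The statements above therefore do not cover that filter for them. Over all tested probes, calls numbered 7322, and leaving out 1 array gave between 4598 (without GFP-positive replicate 2) and 7110. Under the replicate block that pairs same-numbered arrays, 8471 probes were called, S100A6 passed as a further lower S100 gene (7 in all), and no other S100 or annexin call changed. The gaps of the 9 partner pairs kept their sign in all 98 values under those 11 alternatives. With the dimmest tested probe of each gene, an alternative added after seeing the data, 8 pairs rather than 7 had the S100 gene below the annexin. Without background correction, differences of dim genes were smaller, 1.38 for S100A14 and -1.30 for ANXA6.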
